A study of Homo sapiens with 12 samples.

Results

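The abundance of mRNA was compared between 293T cells that were induced with doxycycline to make 4EBP1-4A and the same cells given DMSO. This RNA-seq comparison uses 6 of the 12 libraries of the series, 3 per group. It covers the 20552 of 58735 annotated genes that had at least 10 reads in at least 3 of these 6 libraries. 293T is a human embryonic kidney line, and its cells here, called 293T4A, carry a doxycycline-inducible construct for 4EBP1-4A that was also present in every DMSO culture. The labels give doxycycline at 2 mg/mL for 12 h, whereas the design text of the series gives 2 h. The results text of the study gives a longer time than either for the same experiment. Both groups received cycloheximide before lysis. The transduced cells were a sorted pool and were not described as a single clone. No culture without the construct received doxycycline, so the drug and the protein it induces cannot be told apart. A figure legend of the study calls the 3 replicates biological, whereas the labels do not state that they were separate cultures. The p-values measure the spread between these libraries, and how much of it is technical is not known.

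4EBP1 is a repressor of cap-dependent translation that binds the cap-binding protein eIF4E and keeps it from eIF4G. mTOR releases eIF4E by phosphorylating 4EBP1, and a form whose phosphorylation sites are mutated to alanine stays bound. mTOR and the integrated stress response also act on mRNA levels, among others through the transcription factor ATF4, which drives genes of amino acid uptake and synthesis, and through the sterol-sensing factor SREBP2, which drives cholesterol synthesis. In such bulk libraries, fewer cells that express a gene and less of its RNA per cell cannot be told apart.

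The DMSO libraries held 51519700 to 57824136 reads on genes and the doxycycline libraries 47862104, 45887231 and 21687906 reads, so that replicate 3 of doxycycline was the shallowest. Reads without a unique alignment made up 54.9% to 62.3% of all reads with DMSO, 65.4% and 69.9% in doxycycline 1 and 2, and 88.4% in doxycycline 3. The level of a gene relative to the DMSO mean also tilted with the GC content of its transcript. The slope, in log2 units per 10 percentage points of GC, was -0.06, 0.05 and 0.01 in the DMSO libraries and 0.09, 0.20 and 0.63 in the doxycycline libraries. In genes under 35% GC the median log2 ratio of doxycycline 3 was -1.12, and in genes over 65% GC it was 1.02. Doxycycline 3 therefore stood apart, and doxycycline 2 tilted the same way by less. Because the tilt runs partly along the treatment, results are given without doxycycline 3 and in many cases also with a correction for GC content. The correction may also remove real changes that follow GC content, which was not tested.

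**Figure D1:**
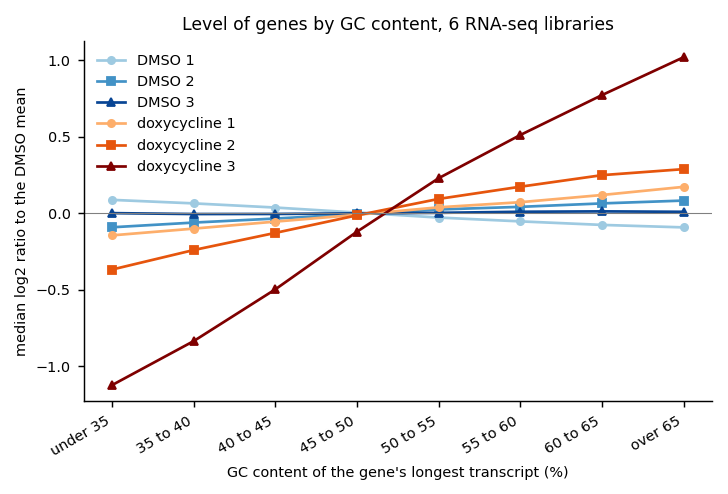
Median log2 ratio of each RNA-seq library to the mean of the 3 DMSO libraries (vertical axis) in 8 classes of genes by GC content in percent (horizontal axis), with 1 line per library. The DMSO lines stay between -0.09 and 0.09, and the line of doxycycline 3 runs from -1.12 to 1.02.

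The induced gene checked the labels. EIF4EBP1 (ENSG00000187840), which encodes 4EBP1, had 153.0, 154.2 and 167.9 CPM (read counts scaled to a common library size with TMM factors) with DMSO and 257.4, 278.8 and 284.6 CPM with doxycycline. The 2 groups did not overlap, and doxycycline 3 was no exception here. Without doxycycline 3 its log2 fold change was 0.76 ± 0.07 (SE), with an adjusted p of 1.06e-05 in edgeR's quasi-likelihood test. With the GC correction the log2 fold change was 0.57 (edgeR adjusted p = 0.000271). Over all 6 libraries it was 0.79 without and 0.41 with the correction (edgeR adjusted p = 0.303 and 0.307). An exact two-sided permutation test of the 6 libraries gave p = 0.1, the smallest value that 3 against 3 libraries allow. The counts do not separate reads of the construct from reads of the endogenous gene. In its small family, the 4E-binding proteins and eIF4E paralogs, 5 members were tested. Without doxycycline 3, EIF4EBP1 itself was the only 1 called higher and 0 were lower, against 3.75% and 3.27% of all genes. With the GC correction EIF4EBP1 was again higher and EIF4EBP2 was lower (edgeR adjusted p = 0.046), against 2.21% and 1.97% of all genes. EIF4E had 28.6, 24.7 and 24.5 CPM with DMSO and 21.9, 20.6 and 18.1 CPM with doxycycline, and it missed the threshold (edgeR adjusted p = 0.0508).

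Over all 6 libraries, edgeR called 0 of the 20552 genes higher and 0 lower at an adjusted p of 0.05, and the smallest adjusted p was 0.303. At an unadjusted p under 0.05 there were 2189 genes higher (10.7%) and 884 lower (4.3%), and DESeq2 called 1 higher and 2 lower. Without doxycycline 3 the same test on the same genes called 770 higher (3.75% of genes tested) and 672 lower (3.27%). The words rose and fell are used below for genes called in this 5-library comparison. The changes were small, with a median size of 0.34 on the log2 scale among genes that rose and 0.33 among genes that fell, and 11 genes in each direction passed 2-fold. Of the genes that rose 710 were protein-coding and of those that fell 624.

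The genes called without doxycycline 3 were split by GC content. Those that rose had a median GC content of 60.3% and those that fell 38.5%, against 48.0% over all genes tested. In the class over 65% GC 117 genes rose and 0 fell of 681, and in the class under 35% GC 0 rose and 92 fell of 473. With the GC correction edgeR called 451 genes higher (2.21% of 20396 genes with a GC value) and 401 lower (1.97%), whose median GC contents were 48.1% and 50.8%. Both ways together called 256 genes higher (1.25% of all genes tested), which is 33.2% of the uncorrected and 56.8% of the corrected calls. They called 189 lower (0.92%), which is 28.1% and 47.1% of the respective lists. Of these, 252 (1.23%) and 183 (0.89%) had no overlap between the 3 doxycycline and the 3 DMSO libraries.

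**Figure D2:**
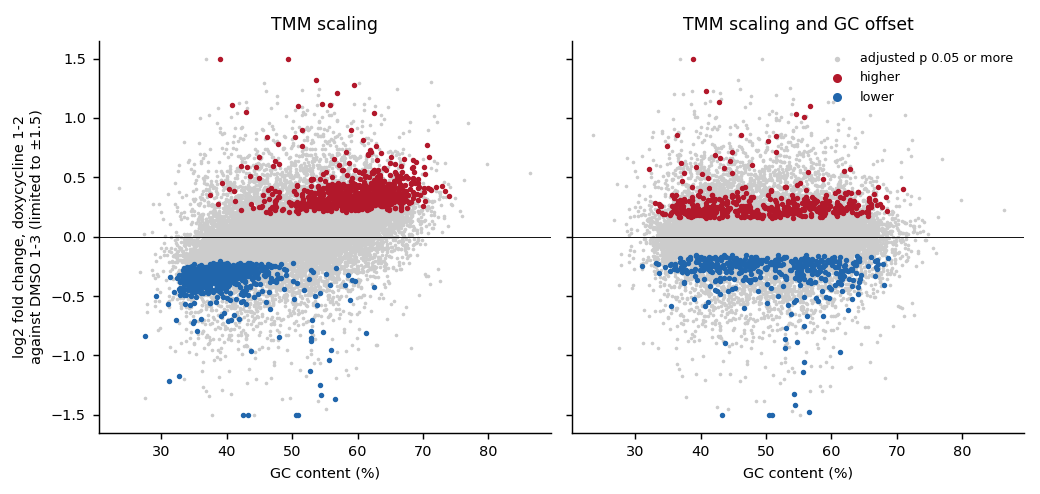
Log2 fold change of doxycycline 1 and 2 against the 3 DMSO libraries for each gene (vertical axis, limited to 1.5 in each direction) against its GC content in percent (horizontal axis), without (left) and with (right) the GC correction. Genes called higher are red and genes called lower blue, and the called genes lie at high and low GC content on the left and across the range on the right.

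Naming the 12 largest rises and 12 largest falls that had at least 5 CPM on average and no overlap of all 6 libraries gave 24 genes, of which 10 rises and 10 falls were also called with the GC correction. The plot of named genes by library shows each value. The falls held CHAC1 (a glutathione-degrading enzyme), SLC7A11 (the cystine transporter) and CTH (cystathionine gamma-lyase), all members of the ATF4 list, and ASNSP1, a pseudogene related to asparagine synthetase. They also held IDI1, MSMO1 and STARD4, members of the cholesterol list that make or carry sterols. The rises other than EIF4EBP1 were mostly low-level genes of high GC content, such as ZNF865, CEROX1, CACNG8, LRFN1, CTU1, KLRG2, ATN1 and KIFC3. The median GC content was 64.9% among the 12 rises and 39.0% among the 12 falls.

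**Figure D3:**
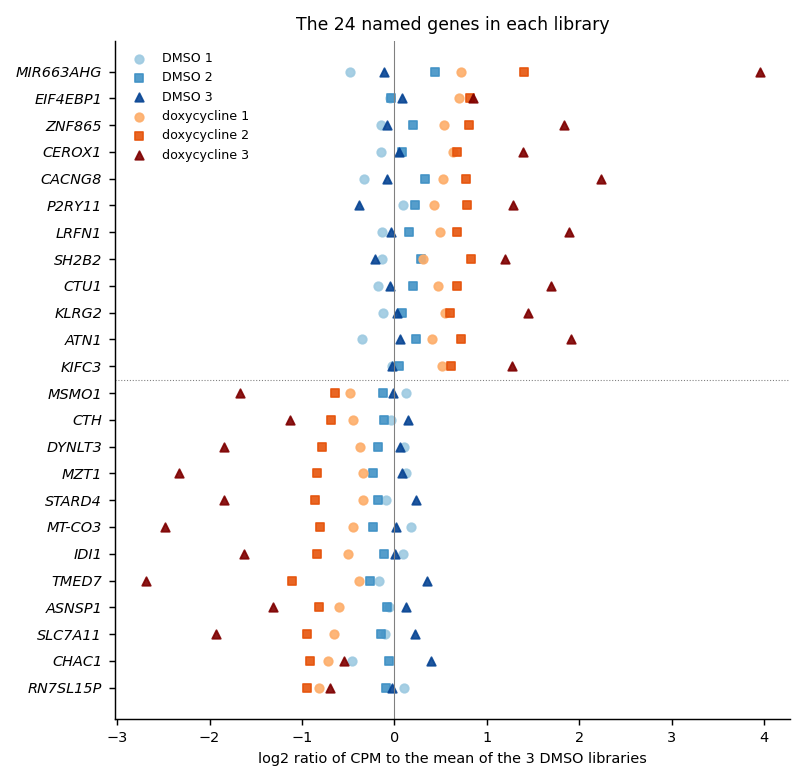
Log2 ratio of CPM to the mean of the 3 DMSO libraries (horizontal axis) for the 24 named genes (vertical axis), with 1 point per library. Doxycycline 3 is the farthest from the DMSO mean in 12 of 12 rises and 10 of 12 falls, the exceptions being CHAC1 and RN7SL15P.

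Among the rises, MIR663AHG, the host transcript of a microRNA, had 2.68, 5.07 and 3.46 CPM with DMSO and 6.18, 9.91 and 57.8 CPM with doxycycline. Its level in doxycycline 3 was far above that in the other libraries, and its log2 fold change was 1.11 without that library and 2.70 with it. ZNF865, a zinc finger protein gene, had 10.4, 13.2 and 10.9 CPM with DMSO and 16.6, 20.1 and 41.0 CPM with doxycycline (log2 fold change 0.67 ± 0.11 without doxycycline 3, edgeR adjusted p = 0.00455). Its GC content was 70.9%, and the change with the GC correction was 0.40 (adjusted p = 0.0157). CTU1, which acts in the thiolation of tRNA, had 13.6, 17.7 and 14.9 CPM with DMSO and 21.4, 24.6 and 49.6 CPM with doxycycline. P2RY11, a purine receptor, and SH2B2, an adaptor protein, were the 2 named rises that were no longer called with the GC correction (adjusted p = 0.139 and 0.192 in edgeR).

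Among the falls, RN7SL15P, a pseudogene of the 7SL RNA, had 9.88, 8.66 and 9.06 CPM with DMSO and 5.23, 4.79 and 5.67 CPM with doxycycline. The fall was 0.88 ± 0.11 without the correction and of like size with it, since the log2 fold change was then -0.94 (edgeR adjusted p = 0.000626). This gene and ASNSP1 have near-identical copies elsewhere in the genome, so their counts are uncertain. TMED7, a cargo receptor of the secretory pathway, had 65.6, 61.2 and 93.8 CPM with DMSO and 56.4, 34.2 and 11.4 CPM with doxycycline. Together with STARD4 it was a named fall that was not called with the GC correction (adjusted p = 0.0816 and 0.0703 in edgeR). MZT1 and DYNLT3, genes of the microtubule machinery, had GC contents of 31.0% and 33.6%, and their log2 fold changes moved from -0.57 and -0.56 to -0.25 and -0.31 with the correction, both still called (adjusted p = 0.0408 and 0.0285 in edgeR).

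Genes of ATF4 and the integrated stress response were lower where they were called. Of the 34 members, all tested, 12 fell and 0 rose without doxycycline 3, against 3.27% and 3.75% of all genes. With the GC correction 14 were lower and 0 higher, against 1.97% and 2.21%. Only 8 members were called lower in both ways, against 0.92% of all genes. The log2 fold change was negative in 31 of 34 members without and in 34 of 34 with the correction, and the median was -0.28 and -0.30, against 0.00 over all genes in both. The list has a median GC content of 52.6%. Over all 6 libraries 0 members were called and the median was -0.13.

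SLC7A11 had 181.5, 176.1 and 228.2 CPM with DMSO and 123.7, 101.1 and 51.2 CPM with doxycycline. Every doxycycline library was below every DMSO library, and the log2 fold change was -0.80 ± 0.10 (edgeR adjusted p = 0.000867), or -0.59 with the GC correction (adjusted p = 0.00587). CHAC1 had 25.8, 34.2 and 46.6 CPM with DMSO and 21.6, 18.8 and 24.4 CPM with doxycycline, which is a log2 fold change of -0.81 ± 0.16 (edgeR adjusted p = 0.0109). Its GC content was 61.3%, and the correction moved the change to -0.97 (adjusted p = 0.00908). The DMSO libraries themselves spread over a wider range than the doxycycline libraries in CHAC1. CTH, which makes cysteine, had 40.7, 38.6 and 46.2 CPM with DMSO and 30.6, 26.0 and 19.2 CPM with doxycycline, a log2 fold change of -0.56 ± 0.09 (edgeR adjusted p = 0.00455).

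ATF4 itself, the transcription factor of the list, had 480.1, 500.6 and 540.5 CPM with DMSO and 425.0, 418.5 and 428.9 CPM with doxycycline. The groups did not overlap, the 3 doxycycline libraries lay close together, and the log2 fold change was -0.27 ± 0.06 (edgeR adjusted p = 0.0247), or -0.38 with the GC correction (adjusted p = 0.00389). The partner factor CEBPG fell (adjusted p = 0.0214 in edgeR), as did the tRNA exporter XPOT (adjusted p = 0.0121) and asparagine synthetase ASNS (adjusted p = 0.0229). STC2 and DDIT4 fell as well, but doxycycline 3 lay within or above their DMSO range, with 219.0 and 207.6 CPM. Members that did not pass without the correction included TRIB3, SESN2, SLC7A5 and SLC1A5, all of which were called lower with it. ATF3, a stress-induced transcription factor, had 58.4, 69.6 and 80.1 CPM with DMSO and 65.3, 46.2 and 55.6 CPM with doxycycline, so the groups overlapped (edgeR adjusted p = 0.109).

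The level of these genes also differed between the DMSO libraries. DMSO 3 was the highest DMSO library in 28 of the 34 members. Without it and doxycycline 3, edgeR called 7 members lower and the median was -0.20. Leaving out DMSO 1 or DMSO 2 together with doxycycline 3 instead gave 17 and 19 members lower. Of all 20552 genes, 282, 195 and 1434 were lower in these 3 fits. Without doxycycline 2 and 3, a single doxycycline library remained and the median of the list was -0.24. The summed CPM of the list fell between groups by 0.23 on the log2 scale, with overlapping groups (exact two-sided permutation p = 0.2).

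The promoters of the list were searched for TGATGNAA, the core of the element that ATF4 binds together with a C/EBP partner because the called members were all lower. RefSeq promoters on GRCh38.p14, from 250 bases before to 50 after the start, were at hand for 31 of the 34 members. On either strand 8 of the 31 held the element, against 3.67% of 27305 promoters. Of the 12 members that fell 11 had a promoter at hand and 2 of these held it. The stretches of these 2, on the strand of the gene and with the element in capitals, read as follows, and in CHAC1 the element lies on the opposite strand.
CHAC1: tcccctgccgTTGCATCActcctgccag
ASNS: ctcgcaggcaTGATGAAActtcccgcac
The CHAC1 stretch lies at chr15:40953252-40953279 and the ASNS stretch at chr7:97872459-97872486, with the element starting 209 and 68 bases before the transcription start. A match of letters does not show binding, and no match says only that these letters are not in this window.

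Serine and one-carbon metabolism, which supplies methyl groups and purines, is in part driven by ATF4 and went in both directions. Of 18 enzymes 3 fell and 1 rose, against 3.27% and 3.75% of all genes. The GC correction gave 4 lower and 3 higher, against 1.97% and 2.21% of all genes. PSAT1, the aminotransferase of serine synthesis, had 375.9, 347.7 and 381.7 CPM with DMSO and 263.6, 242.9 and 155.1 CPM with doxycycline (log2 fold change -0.54 ± 0.07, edgeR adjusted p = 0.000867, and 0.000522 with the GC correction). MTHFD2, of the mitochondrial folate cycle, had 320.8, 295.0 and 345.5 CPM with DMSO and 249.4, 215.3 and 136.7 CPM with doxycycline. Neither gene's groups overlapped. ATIC, which ends purine synthesis, went the other way, from 110.4, 123.3 and 125.0 CPM to 150.5, 161.3 and 147.9 CPM (log2 fold change 0.38 ± 0.07, edgeR adjusted p = 0.0077).

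In cholesterol synthesis and uptake most calls were lower. Of 24 members 23 were tested, of which 8 fell and 2 rose without doxycycline 3, against 3.27% and 3.75% of all genes. With the GC correction 12 were lower and 1 higher, against 1.97% and 2.21%. The median log2 fold change was -0.16 without and -0.21 with the correction, and -0.13 over all 6 libraries, where 0 members were called. Without doxycycline 2 and 3, a single doxycycline library remained and the median was -0.17. IDI1, the isopentenyl diphosphate isomerase, had 155.4, 134.7 and 145.7 CPM with DMSO and 102.3, 81.2 and 47.0 CPM with doxycycline. This is a log2 fold change of -0.66 ± 0.09 without doxycycline 3 (edgeR adjusted p = 0.00104), or -0.55 with the GC correction (adjusted p = 0.000918).

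INSIG1, the sterol-regulated retention protein of the pathway, had 251.4, 231.9 and 237.1 CPM with DMSO and 184.2, 158.5 and 135.0 CPM with doxycycline (log2 fold change -0.49 ± 0.07, edgeR adjusted p = 0.00355). HMGCS1, SQLE and MSMO1, enzymes of the synthesis, fell by 0.44, 0.38 and 0.56 on the log2 scale, and with the GC correction all 3 were still called. In all of these genes the doxycycline libraries lay below the DMSO libraries. STARD4 and SC5D fell without the correction only. CYP51A1 and PMVK rose, and CYP51A1 was still called with the correction at 7.26, 7.63 and 8.85 CPM with DMSO against 9.32, 11.3 and 18.3 CPM with doxycycline. The element TCACNCCAC, a form of the sterol response element, was in 1 of 18 promoters of the list at hand, that of SREBF2, against 1.15% of all promoters.

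**Figure D4:**
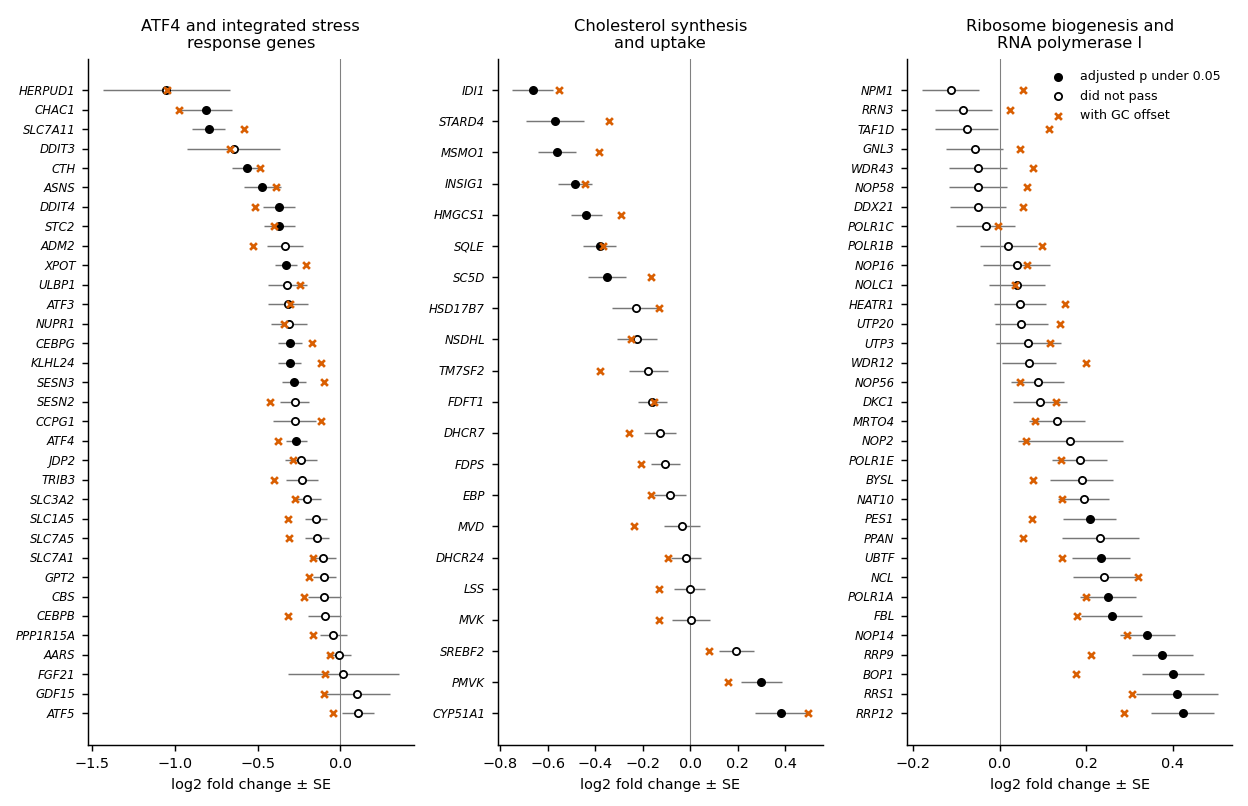
Log2 fold change of doxycycline 1 and 2 against the 3 DMSO libraries with its SE (horizontal axis) for the members plotted of 3 gene lists (vertical axis). Filled points passed an adjusted p of 0.05, open points did not, and crosses give the value with the GC correction. All 33 crosses plotted in the ATF4 list lie below 0, as do 18 of 21 in the cholesterol list, and 32 of 33 in the ribosome biogenesis list lie above 0.

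In ribosome biogenesis the called members were higher. Of 33 factors and subunits of RNA polymerase I, 9 rose and 0 fell without doxycycline 3, against 3.75% and 3.27% of all genes. Under the GC correction 8 were higher and 0 lower, against 2.21% and 1.97%. Over all 6 libraries edgeR called 0, and limma voom with library weights called 15 higher and 2 lower. Voom called 3810 higher and 3724 lower among all 20552 genes. The median log2 fold change was 0.09 and 0.11, and the list's median GC content of 47.8% was close to the 48.0% of all genes. RRP12, a factor of 40S export, had 92.3, 106.0 and 108.4 CPM with DMSO and 130.7, 143.5 and 188.3 CPM with doxycycline (log2 fold change 0.42 ± 0.07, edgeR adjusted p = 0.00656). NOP14, of the small subunit processome, had 167.5, 185.9 and 176.4 CPM with DMSO and 221.7, 225.9 and 329.8 CPM with doxycycline (log2 fold change 0.34 ± 0.06, edgeR adjusted p = 0.00895). Both were called with the GC correction too, at log2 fold changes of 0.29 and 0.29. The groups did not overlap in 19 of the 33 members on the higher side and in 1 on the lower, against 19.7% and 18.9% of all genes. BOP1, RRP9, RRS1 and POLR1A, the large subunit of RNA polymerase I, also rose in both ways. UBTF, FBL and PES1 rose without the correction only. Leaving out DMSO 1 or DMSO 3 together with doxycycline 3 gave 4 and 5 members higher, where 205 and 410 of all 20552 genes were higher. Leaving out doxycycline 2 and 3 gave a median log2 fold change of 0.09.

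The protein components of the ribosome and the translation factors gave calls in both directions. Of 79 cytosolic ribosomal protein genes 1 rose, RPS19, and 3 fell, RPL30, RPL15 and RPS23. With the GC correction 0 were higher and 9 lower, RPL30 and RPL15 among them, and the median was -0.06 without and -0.09 with it. Of 42 translation initiation and elongation factors 2 rose, EIF3B and EIF3D, and 2 fell, EIF2S2 and EIF1AX. With the correction 7 were higher, among them EIF3A, EIF3B and EIF3D, and 2 lower. Of 77 mitochondrial ribosomal protein genes 1 rose and 4 fell, and with the correction 4 were higher and 2 lower, none of which were called in both ways. For comparison, 3.75% of all genes rose and 3.27% fell, or 2.21% and 1.97% with the correction. In the first 2 lists leaving out DMSO 3 together with doxycycline 3 left 0 members called. Leaving out DMSO 2 with it gave 1 higher and 15 lower in the first and 2 and 6 in the second. Over all 20552 genes these gave 410 higher and 282 lower, and 1467 and 1434.

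Among nuclear-encoded subunits of the respiratory chain and ATP synthase the called members were lower. Of 53 tested 13 fell and 0 rose without doxycycline 3, against 3.27% and 3.75% of all genes. Under the GC correction 12 were lower and 0 higher, against 1.97% and 2.21%, and 7 were called in both ways. The list has a median GC content of 45.4%. NDUFA4 had 72.3, 54.6 and 67.0 CPM with DMSO and 50.1, 40.9 and 15.8 CPM with doxycycline, a log2 fold change of -0.51 ± 0.10 (edgeR adjusted p = 0.0132, and 0.0212 with the GC correction). COX7B and COX7A2, small subunits of cytochrome oxidase, fell by 0.39 and 0.33 on the log2 scale and were called in both ways. The count varied with the libraries used, as it did over all genes. Without DMSO 1 and doxycycline 3, 2 members were lower, and without DMSO 3 and doxycycline 3 it was 7. Over all 20552 genes 195 and 282 were lower in these 2 fits, against 672 with all 3 DMSO libraries. Without doxycycline 2 and 3 the median log2 fold change of the list was -0.11.

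Of the 13 mRNAs of the mitochondrial genome 2 fell, MT-CO3 and MT-CO1, and of the 2 mitochondrial rRNAs MT-RNR2 fell. Of all genes 3.27% fell, and 1.97% were lower and 2.21% higher with the GC correction. The GC correction gave 2 of the 13 lower and 1 higher, MT-ND4L, and the median log2 fold change of the 13 was 0.02 against -0.04 without it. MT-CO3 had 1098, 824.1 and 983.5 CPM with DMSO and 712.0, 556.0 and 173.4 CPM with doxycycline, and the log2 fold change was -0.61 ± 0.10 (edgeR adjusted p = 0.00507) and -0.60 with the correction. The share of mitochondrial transcripts among reads on genes was 15.8%, 14.3% and 15.8% with DMSO and 13.6%, 11.8% and 5.76% with doxycycline. It ran in the order of the reads without a unique alignment except between DMSO 1 and 3, and the part of that in these values was not tested.

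Smaller lists gave further members. In the core spliceosome, 6 of 31 genes rose and 2 fell, with 4 and 1 under the GC correction. The shares of all genes were 3.75% and 3.27%, and 2.21% and 1.97%. Leaving out doxycycline 3 with DMSO 1 gave 1 higher and 0 lower, and with DMSO 3 it gave 3 and 0. Over all 20552 genes these gave 205 higher and 195 lower, and 410 and 282. Leaving out doxycycline 3 with doxycycline 2 gave a median log2 fold change of 0.02 in the list. SF3A1, of the U2 particle, had 184.1, 198.0 and 185.9 CPM with DMSO and 240.9, 271.3 and 312.2 CPM with doxycycline (log2 fold change 0.44 ± 0.07, edgeR adjusted p = 0.00381), and SF3B2 of the same particle rose by 0.30. The small subunits SNRPG and SNRPE fell, and neither was called with the correction. Among SR proteins and hnRNPs 2 of 31 rose and 1 fell, and with the correction 5 were higher and 0 lower, HNRNPM being called in both ways.

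Iron and redox genes were lower where they were called. Of 13 iron-handling genes 2 fell, TFRC and HMOX1, and with the GC correction both and FTL were lower. For comparison with the lists of this paragraph, 3.27% of all genes fell and 3.75% rose. With the correction 1.97% were lower and 2.21% higher. TFRC, the transferrin receptor, had 378.8, 348.5 and 365.9 CPM with DMSO and 300.6, 262.1 and 181.7 CPM with doxycycline (log2 fold change -0.37 ± 0.07, edgeR adjusted p = 0.00895). Of 20 genes of the oxidative stress response 3 fell, namely SLC7A11, HMOX1 and GCLM, which makes glutathione. All 3 were called in both ways, and 2 of them also stand in other lists. Of 19 cytosolic heat shock genes 2 fell, HSPA1B and HSPA8, both also called with the correction, and the regulator HSF1 rose without the correction only. HSPA8, the constitutive HSP70, had 1374, 1346 and 1281 CPM with DMSO and 1151, 1080 and 949.8 CPM with doxycycline. In HSPA1B doxycycline 3, at 233.0 CPM, lay within the DMSO range of 229.9 to 262.4 CPM.

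In the endoplasmic reticulum stress list 0 of 20 genes were called, with or without the correction, although the median log2 fold change was -0.32. DMSO 3 was the highest DMSO library in 18 of the 20. DNAJB9, a chaperone of the lumen, had 20.3, 31.7 and 58.9 CPM with DMSO and 26.7, 12.9 and 10.4 CPM with doxycycline, and XBP1, the splice-activated stress factor, had 160.9, 209.7 and 295.0 CPM against 184.5, 137.6 and 168.4 CPM. The spread between DMSO libraries was thus as wide as the difference between groups, and the groups overlapped in both genes. At an unadjusted p under 0.05 over the 6 libraries 2 members were lower and 0 higher, against 4.3% and 10.7% of all genes. Without doxycycline 1 and 3, a single doxycycline library remained and the median log2 fold change was -0.55. The count depended on the libraries used. Without doxycycline 3 and DMSO 1 edgeR called 11 lower, and without doxycycline 3 and DMSO 2 it called 12 lower. Without doxycycline 3 and DMSO 3 it called 0, and limma voom with library weights over all 6 libraries called 15 lower and 1 higher. Of all 20552 genes, 195, 1434 and 282 were lower where doxycycline 3 was left out with DMSO 1, 2 and 3. Voom called 3724 lower and 3810 higher.

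Replication-dependent histone genes, whose RNAs lack a poly(A) tail, gave 3 rises and 4 falls of 34 tested, and 1 and 10 with the GC correction. For comparison with the lists of this paragraph, 3.75% of all genes rose and 3.27% fell. With the correction 2.21% were higher and 1.97% lower. HIST1H3J fell by 0.43 on the log2 scale (edgeR adjusted p = 0.0103) and HIST1H4B rose by 0.30 (adjusted p = 0.0151), so members went both ways. Histone genes of a type are near-identical, which makes their counts uncertain. Among 44 cell cycle and DNA replication genes 7 fell, among them CDK1 and CCNA2, and 2 rose, CDT1 and POLE, against 3.27% and 3.75% of all genes. Without doxycycline 3 and DMSO 1 there were 0 calls, and without doxycycline 3 and DMSO 3 there was 1 in each direction. Over all 20552 genes these gave 205 higher and 195 lower, and 410 and 282. With the correction 2 were lower and 3 higher, and CDK1 (adjusted p = 0.148 in edgeR) was not among them. Of 24 p53 targets 4 rose, PHLDA3, AEN, FDXR and BAX, of which PHLDA3 and AEN were called with the correction, and TP53INP1 fell. In the glycolysis list 1 of 22 genes rose, HK1, from 106.9, 111.4 and 111.7 CPM to 133.2, 137.6 and 153.3 CPM (log2 fold change 0.30 ± 0.06, edgeR adjusted p = 0.0143, and 0.00962 with the GC correction). The study itself reports slightly lower HK1 mRNA after doxycycline by RT-PCR, scaled to beta-actin. The 2 measurements thus differ in direction, and the reason was not tested.

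Immediate early genes and interferon-stimulated genes gave few calls without doxycycline 3, and tubulins gave calls there with the GC correction only. For comparison with all counts here, 3.75% of all genes rose and 3.27% fell. With the correction 2.21% were higher and 1.97% lower. CYR61 was the only rise of 34 immediate early genes, and ISG15 the only rise of 21 interferon-stimulated genes, the latter not called with the correction. Of 14 tubulin genes 0 were called without the correction and 5 were lower with it, TUBA1B, TUBA1C, TUBB2B, TUBB4B and TUBB6. At an unadjusted p under 0.05 over the 6 libraries in edgeR 2 tubulin genes were higher and 0 lower, against 10.7% and 4.3% of all genes. Of 32 proteasome subunits 2 rose, PSMD4 and PSMC5, both also called with the correction, and PSMA2 fell. Of 20 cytosolic aminoacyl-tRNA synthetases 2 rose, VARS and FARSA, and GARS fell, and VARS alone was called in both ways. Of 15 mitochondrial chaperones and proteases 3 rose, TRAP1, DNAJA3 and SPG7, of which DNAJA3 was called with the correction. Among 22 noncoding hosts of snoRNAs SNHG17 rose and DANCR and SNHG16 fell, all 3 in both ways. LAMP2 fell among 28 lysosome and autophagy genes and SLC39A10 among 10 genes of metallothioneins and zinc transport, neither with the correction.

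**Figure D5:**
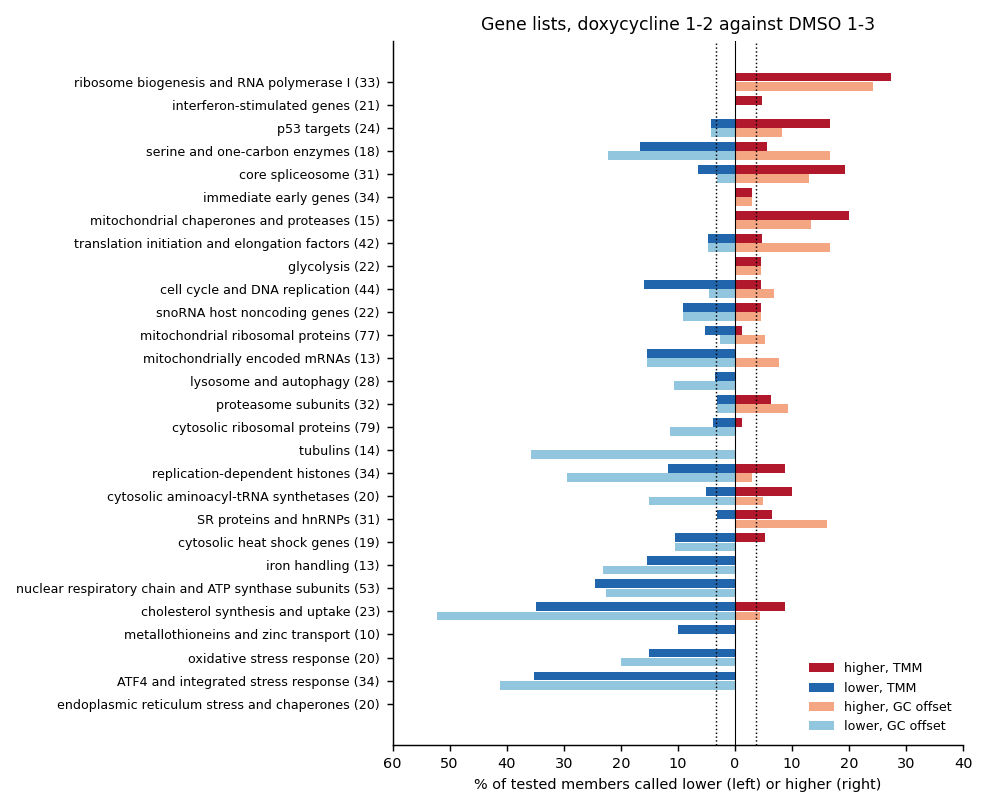
Percent of tested members called lower (left of 0) or higher (right of 0) in the comparison of doxycycline 1 and 2 with the 3 DMSO libraries (horizontal axis) for the 28 gene lists with at least 10 tested members (vertical axis, number tested in brackets). Dark bars are without and light bars with the GC correction, and dotted lines mark the shares of all genes, 3.75% higher and 3.27% lower.

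All 7 markers listed for 293T passed the count filter, which by itself does not show the identity of the cells. VIM alone made up 74.0% of their summed level. NEFM and KRT18 rose, against 3.75% of all genes. With the GC correction 2 markers were higher, against 2.21%, and 1 was called in both ways, against 1.25%. NEFM, a neurofilament, had 65.9, 83.4 and 84.6 CPM with DMSO and 105.1, 111.7 and 186.2 CPM with doxycycline. Of the markers of other cells, 2 of 11 for keratinocytes, 1 of 9 for blood cells and 4 of 7 for fibroblasts passed the count filter. COL1A1 had 8.23, 10.2 and 8.49 CPM with DMSO and 10.1, 13.4 and 25.5 CPM with doxycycline, and it overlapped and did not pass (edgeR adjusted p = 0.0537). LUM, at 0.29 to 1.57 CPM, fell (edgeR adjusted p = 0.0363) and was not called with the GC correction.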

How the data were processed

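RNA-seq of 3 DMSO and 3 doxycycline libraries was used, and the 6 Ribo-seq libraries were not used here. The deposited table holds raw read counts per gene, made by the authors from reads aligned with STAR and counted on exons. The methods name GRCh38 and the labels GRCh37 with Ensembl release 75, and whether strand was used in counting is not given in the sources used here, so antisense and overlapping genes cannot be told apart. A deposited table of the authors' own comparisons (p-values, q-values, ratios and log2 values of translation) gave gene symbols only. Reads that named no gene were 69.1% to 94.1% of all reads, and they were left out of all tests and library sizes, as were 92 ERCC spike-ins and 89 viral rows. No pair of libraries was identical.

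Counts were tested with edgeR 4.0.16 (quasi-likelihood F-test, TMM factors, Benjamini-Hochberg adjustment at 0.05; limma 3.58.1, R 4.3.3), with all 6 libraries and without doxycycline replicate 3. SE is the log2 fold change divided by the root of F. GC content came from the longest transcript of each gene in GENCODE 44, matched by gene ID for 58207 of 58735 genes, and the GC correction was an offset per library from a loess curve (span 0.5). Named genes are EIF4EBP1, the 12 largest rises and falls with a symbol, a mean of at least 5 CPM, an adjusted p under 0.05 without doxycycline 3 and no overlap of the 6 libraries, and up to 4 members per list by smallest p. Other list members, such as those named as called in 1 or both ways, and the promoter stretches were chosen after their values were seen. The comparison and its 34 gene lists were chosen with earlier results of these data known. The steps were tested on simulated data. Alternatives were DESeq2 1.42.0, limma voom with library weights, other scalings and filters, a replicate block and leaving out each library. Samples were not paired by replicate number in the main tests. Some list members are not reported here by name and were not plotted, though they are in the counts.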

Additional observations from a re-analysis of the deposited data

How the results depend on the processing

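With 6 libraries, 0 genes were called in either direction under DESeq2 size factors, library totals, either filter, the GC offset and when any library but doxycycline 3 was left out, so leaving out 1 library gave 0 to 770 genes higher and 0 to 672 lower. ERCC spike-ins as library sizes gave 196 higher and 0 lower, and put the median log2 fold change of all genes at 0.34. The DESeq2 Wald test gave 1 and 2, edgeR's likelihood ratio test 4 and 8, and limma voom with library weights 3810 and 3724. The log2 fold change of EIF4EBP1 was 0.79 in these (adjusted p = 1.01e-08 in DESeq2 and 1.74e-05 in edgeR's likelihood ratio test) and 0.78 in voom (adjusted p = 3.48e-05). Leaving out 1 library gave 0.76 to 0.83, the GC offset 0.41 and the replicate block with GC offset 0.39.

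Without doxycycline 3, library totals gave 1443 higher and 338 lower, of which 81.0% were higher against 53.4% with TMM. ERCC spike-ins put the median of all genes at 0.10 and gave 0 and 0 (168 and 40 at an unadjusted p under 0.05 in edgeR), with EIF4EBP1 at 0.85 (adjusted p = 1). DESeq2 gave 992 and 1070, with 8766 genes left without an adjusted p, and the GC offset gave 451 and 401. Leaving out 1 further library gave 2 to 1467 higher and 7 to 1572 lower, with EIF4EBP1 at 0.70 to 0.82. Without DMSO 1 there were 205 and 195 calls, without DMSO 2 1467 and 1434, without DMSO 3 410 and 282, without doxycycline 1 1398 and 1572, and without doxycycline 2 only 2 and 7. Where a single doxycycline library remained, it was assumed to vary like the DMSO libraries.

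Deviations of same-numbered samples from their group means had r = 0.61, -0.68 and 0.04. DMSO 1 gave 0.66 with doxycycline 2 and -0.66 with doxycycline 3. DMSO 2 gave -0.74 with doxycycline 1 and 0.75 with doxycycline 3. The signs thus turned with doxycycline 3, so these values cannot decide whether the samples were paired. A replicate block without doxycycline 3 gave 2108 higher and 2220 lower, and 199 and 166 with the GC offset. With 6 libraries the block gave 0 and 0.

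Alternatives for lists were added after seeing the data. With 6 libraries 0 members were called in the ATF4, cholesterol, ribosome biogenesis and respiratory chain lists, with the GC offset as without. Voom with library weights called 0 higher and 23 lower in the ATF4 list and 3 and 12 in the cholesterol list. In ribosome biogenesis it called 15 and 2, and in the respiratory chain 7 and 21. Over all 20552 genes it called 3810 higher and 3724 lower. With library totals the summed level of the cholesterol list was -0.12 against -0.22 with TMM, and that of ribosome biogenesis 0.19 against 0.09. Leaving out 1 library gave -0.23 to -0.21 and 0.08 to 0.11. Over the named genes other than EIF4EBP1 and both comparisons, 640 values kept direction and side of the threshold. A further 56 came to pass it, 63 no longer passed it and 0 changed direction.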
